A study of Mus musculus with 6 samples.

Results

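The EGF family of growth factors and the ERBB receptors that read them were measured by RNA-seq in mouse uterine luminal epithelium, the sheet of cells to which a mouse embryo attaches. The 10 genes were taken by symbol from the deposited table of 24964 genes, and all 10 were listed. They are 5 ligands (Areg, Ereg, Hbegf, Btc and Tgfa), the 4 receptors (Egfr, Erbb2, Erbb3 and Erbb4) and the receptor inhibitor Errfi1. The tested animals, called Foxo1dd, were Pgrcre/+ Foxo1f/f females, which carry floxed Foxo1 alleles and a Cre gene in 1 copy of Pgr, the progesterone receptor gene. The controls, called Foxo1ff, were Foxo1f/f females, with the same floxed alleles and no Cre. Each group held 3 bioreplicates, and all females were kept to 8 weeks of age, mated with stud males and dissected on pregnancy day 4. Epithelium was isolated by laser capture. Cre driven from Pgr acts wherever the progesterone receptor has been expressed, not in the epithelium alone, and the Cre insertion also alters 1 Pgr allele in Foxo1dd but not in Foxo1ff. The labels do not say how many animals stand behind a bioreplicate, and each p-value speaks for the spread of these 6 samples alone, part of which may be technical.

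EGF ligands are made as membrane proteins and released by metalloproteases. Areg (amphiregulin), Tgfa (transforming growth factor alpha), Ereg (epiregulin), Btc (betacellulin) and Hbegf (heparin-binding EGF-like growth factor) bind the receptor Egfr, and the last 3 can also bind Erbb4. Ligand binding pairs the receptors. Erbb2 has no ligand of its own and serves as a partner, while Erbb3 binds neuregulins and has little kinase activity, so it signals through its partners. Errfi1 (Mig-6) is an intracellular protein that binds and inhibits the Egfr and Erbb2 kinases. In the mouse uterus, Areg is known as a progesterone-responsive gene of the luminal epithelium and Hbegf as an early marker of the epithelium that faces an attaching blastocyst.

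What makes these ligands a family is the EGF-like domain, held together by 6 cysteines. The coding bases of that domain are shown for 4 ligands, from the first to the last of the cysteine codons, which are in capitals. They come from GENCODE M21 transcripts of the GRCm38 assembly.
Areg: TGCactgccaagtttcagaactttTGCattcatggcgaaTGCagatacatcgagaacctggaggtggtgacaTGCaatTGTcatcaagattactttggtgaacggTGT
Ereg: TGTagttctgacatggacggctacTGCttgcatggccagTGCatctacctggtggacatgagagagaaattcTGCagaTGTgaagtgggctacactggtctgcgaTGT
Btc: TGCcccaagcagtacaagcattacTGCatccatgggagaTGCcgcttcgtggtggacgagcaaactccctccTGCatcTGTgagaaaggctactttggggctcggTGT
Tgfa: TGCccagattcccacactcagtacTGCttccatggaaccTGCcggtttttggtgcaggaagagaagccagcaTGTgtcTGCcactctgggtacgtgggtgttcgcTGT
Each stretch is 108 bases long, is split over 2 exons and has the same spacing of cysteine codons, with 7, 4, 10, 1 and 8 other codons between neighbours. The Areg stretch lies within chr5:91143614-91144364 (plus strand), that of Ereg within chr5:91088496-91089111 (plus strand), that of Btc within chr5:91362421-91366197 (minus strand) and that of Tgfa within chr6:86263200-86269960 (plus strand). Base for base, Areg was identical to Btc at 62 of 108 positions (57.4%), to Ereg at 58 (53.7%) and to Tgfa at 51 (47.2%). The closest pair was Btc and Tgfa, at 67 of 108 (62.0%).

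Foxo1 was low in every sample labelled Foxo1dd, with 1.72, 0.942 and 1.22 FPKM (sequenced fragments scaled to gene length and library size), against 160.0, 118.5 and 110.8 FPKM in Foxo1ff. Values are per gene, so the floxed exon was not resolved, and exons of Gm20402 lie opposite. Pgr had 36.2, 29.9 and 28.3 FPKM in Foxo1dd, against 2.44, 1.64 and 2.02 FPKM in Foxo1ff, and how much of it comes from the allele with the Cre insertion was not tested. Summed FPKM ran from 552190 to 564628 in Foxo1dd and from 613186 to 667499 in Foxo1ff. Foxo1dd 2 listed 13995 genes above 0, against 15474 to 16062 in the other samples. In the table as a whole, 22.2% of 11427 tested genes were higher and 34.2% lower in Foxo1dd, 56.4% together, at an adjusted p under 0.05 in limma, a linear model fitted to log2(FPKM + 1) across all genes. A gene was tested if its mean over the 6 samples was at least 1 FPKM. Over all tested genes the median log2 change was -0.15, and median-of-ratios scaling moved it by 0.14, to -0.01.

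Of the 10 genes, 8 were tested, of which 1 rose (Areg), 2 fell (Hbegf and Erbb3) and 5 did not pass the test. Ereg and Erbb4 lay below the minimum. The 3 calls are 37.5% of the tested members, against the 56.4% of all tested genes, so the share called was no higher in the family than in the table. In 1 of the 8 all Foxo1dd values lay above all Foxo1ff values (25.3% of all tested genes) and in 2 they lay below (39%), 3 in all, against 64.2% of all tested genes. The median log2 change of the 8 was -0.20.

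**Figure D1:**
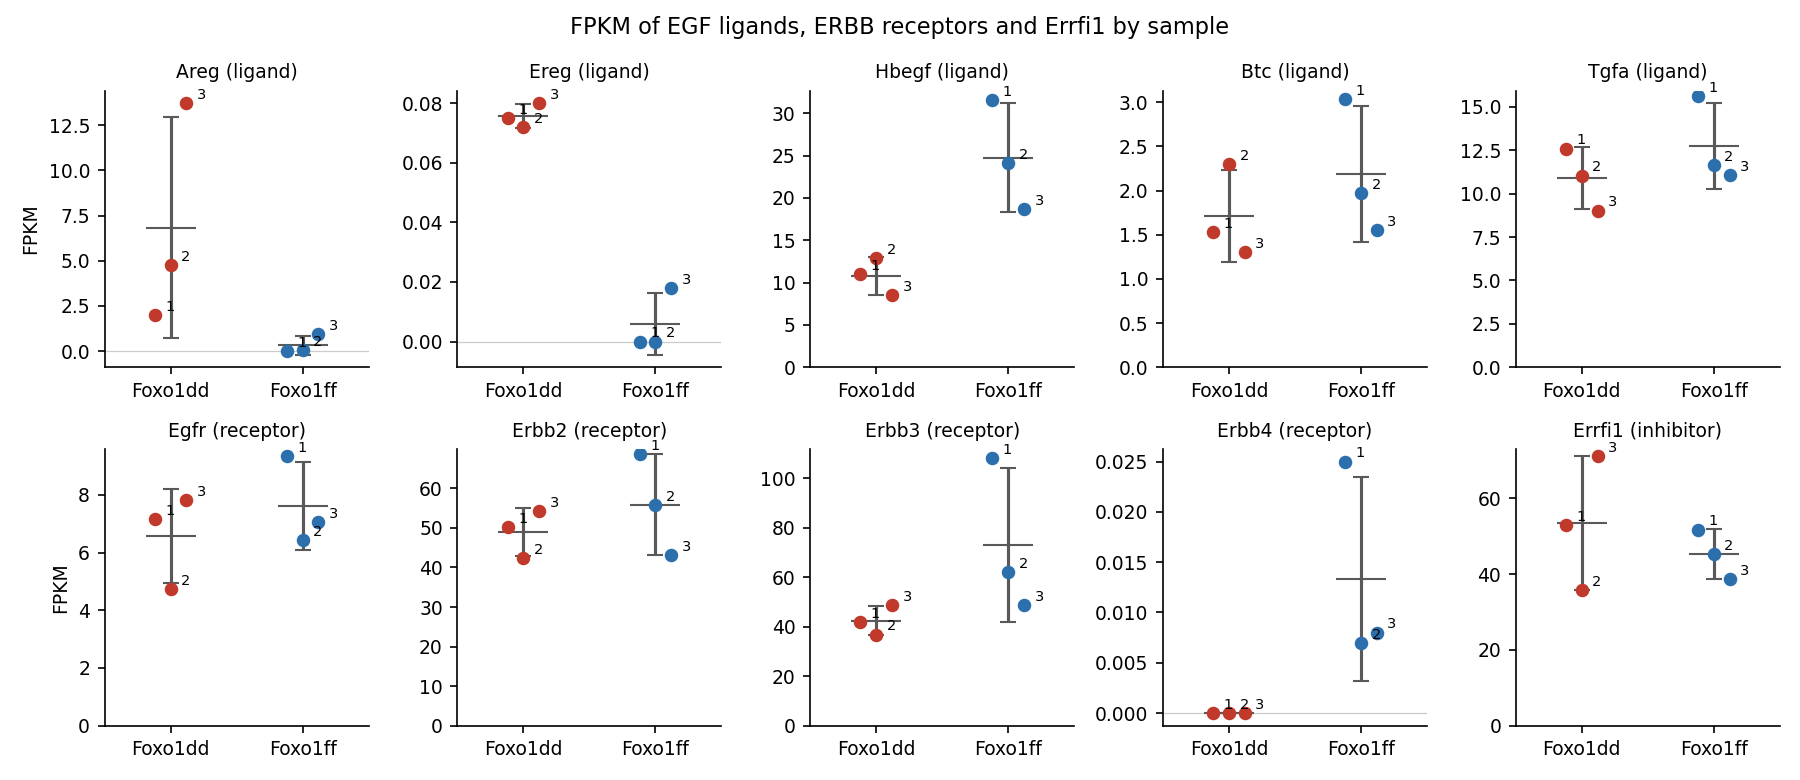
FPKM of each gene in the 3 Foxo1dd samples (red, left) and the 3 Foxo1ff samples (blue, right). Points are samples marked with their bioreplicate number, bars are the mean and SD, and each panel has its own linear axis. Areg reached 13.7 FPKM in Foxo1dd 3 and at most 0.935 FPKM in Foxo1ff, while Hbegf was at most 12.9 FPKM in Foxo1dd and at least 18.7 FPKM in Foxo1ff.

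Areg, the amphiregulin gene, showed the largest change of the 8 tested genes. It had 2.01, 4.79 and 13.7 FPKM in Foxo1dd, against 0, 0.0670 and 0.935 FPKM in Foxo1ff. All 3 Foxo1dd samples were above all 3 Foxo1ff samples, but each group was uneven, with means of 6.84 ± 6.12 FPKM in Foxo1dd and 0.334 ± 0.522 FPKM in Foxo1ff (SD, n = 3 each). The log2 change was 2.32 ± 0.51 (SE, limma adjusted p = 0.00426). The call was kept in each of its 13 alternatives (adjusted p from 0.000108 to 0.0253), with changes of 1.71 to 4.34, the highest at a pseudocount of 0.1.

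The size of the Areg difference rested on single samples. The ratio of group means was 20.5, and it was 10.2 without Foxo1dd 3, the sample with the highest value, and 204 without Foxo1ff 3. In approximate reads, estimated from the smallest steps in the table and the exon length of 1215 bases, Areg had 187, 428 and 1412 reads in Foxo1dd and 0, 8.00 and 93.6 reads in Foxo1ff. The 0 in Foxo1ff 1 allows up to 0.0278 FPKM (3 reads). In 2 of the 3 Foxo1ff samples Areg was thus counted at 8.00 reads or fewer.

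Areg lies on chromosome 5 (91139599 to 91148432, plus strand, mm10) in a row of EGF ligand genes. Ereg ends 46.0 kb before it, and Epgn, a further ligand of the family, ends 39.4 kb before Ereg. Btc lies on the minus strand, and its nearer end, where the gene ends, is 208.8 kb after Areg. The neighbours differed in level. Ereg had 0.0750, 0.0720 and 0.0800 FPKM in Foxo1dd and 0, 0 and 0.0180 FPKM in Foxo1ff. All 3 Foxo1dd values were the higher ones, at about 21.9 to 28.0 reads a sample against at most 6.12 reads, but Ereg was too low to enter the test. Its exons also overlap those of Gm19610 on the opposite strand, and the strand setting of the counting is not given in the sources used here. Epgn was at 0.152 FPKM in Foxo1dd 1 and at 0 in the other 5 samples.

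Btc, the betacellulin gene at the far end of the row, was low in each group. It had 1.53, 2.30 and 1.30 FPKM in Foxo1dd, against 3.04, 1.97 and 1.56 FPKM in Foxo1ff, and the groups overlapped. The log2 change was -0.22 ± 0.23 (SE, limma adjusted p = 0.440), with a 95% interval of -0.75 to 0.30. Whether the genes of the row differ from each other in their change was not tested.

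The 250 bases before the Areg start and before 1 of the 2 Errfi1 starts are shown because, among the 7 of 10 genes with a promoter in the RefSeq table (GRCm38.p6), these windows alone held the cAMP response element TGACGTCA, in capitals below.
Areg, chr5:91139349-91139598, plus strand: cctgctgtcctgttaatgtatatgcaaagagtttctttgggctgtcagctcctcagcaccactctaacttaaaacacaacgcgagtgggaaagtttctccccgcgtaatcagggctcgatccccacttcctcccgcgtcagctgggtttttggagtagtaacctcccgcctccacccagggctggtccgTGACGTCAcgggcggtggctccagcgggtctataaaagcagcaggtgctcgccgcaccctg
Errfi1, chr4:150854820-150855069, plus strand: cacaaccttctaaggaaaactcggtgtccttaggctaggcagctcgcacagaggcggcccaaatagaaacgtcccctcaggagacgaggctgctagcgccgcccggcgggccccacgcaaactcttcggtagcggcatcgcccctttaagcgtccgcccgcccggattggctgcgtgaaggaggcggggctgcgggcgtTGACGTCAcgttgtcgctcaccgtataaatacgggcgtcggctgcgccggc
The element begins 61 bases before the Areg start and 51 bases before the Errfi1 start, and 1.55% of 32851 promoter windows of this length hold it. The Areg window overlaps no annotated gene, and the Errfi1 window overlaps an exon of 1700045H11Rik on the opposite strand. No window of the 7 genes held the AP-1 site TGANTCA (6.75% of all windows) or the FOXO core GTAAACA (3.17%). Ereg, Hbegf and Erbb3 had no promoter entry, so the genes called lower, Hbegf and Erbb3, were not searched for any motif. The 3 motifs were searched on both strands, and no match of one can lie within a match of another. The letters are a description of these windows and do not show binding. Of the 2 genes with the element, Areg rose and Errfi1 did not pass the test.

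Hbegf, which encodes the heparin-binding ligand, was the most abundant ligand in Foxo1ff and fell in Foxo1dd. It had 11.0, 12.9 and 8.48 FPKM in Foxo1dd, against 31.5, 24.1 and 18.7 FPKM in Foxo1ff. Every Foxo1dd value lay below every Foxo1ff value, and the group means of 10.8 ± 2.20 and 24.8 ± 6.47 FPKM (SD, n = 3 each) differ 2.30-fold. The log2 change was -1.12 ± 0.21 (SE, limma adjusted p = 0.00178). Hbegf kept its call in each of 14 alternatives, with changes of -1.30 to -0.93. Its gene lies on chromosome 18 (36504927 to 36515805, minus strand) and overlaps no exon of another gene.

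Tgfa, the gene of transforming growth factor alpha, was about as abundant as Hbegf in Foxo1dd. It had 12.6, 11.0 and 9.03 FPKM in Foxo1dd, against 15.6, 11.6 and 11.1 FPKM in Foxo1ff. The groups overlapped, and the log2 change was -0.21 ± 0.18 (SE, limma adjusted p = 0.345), with a 95% interval of -0.61 to 0.19. Exons of Gm43917 lie opposite to those of Tgfa.

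The plot of shares within a sample shows the make-up of the ligand sum. FPKM is already divided by gene length, so the levels of the 5 ligands can be summed. The sum was 27.2, 31.1 and 32.6 FPKM in Foxo1dd, against 50.2, 37.8 and 32.2 FPKM in Foxo1ff, and the groups overlapped. Hbegf made up 40.4%, 41.4% and 26.0% of it in Foxo1dd, against 62.8%, 63.8% and 57.9% in Foxo1ff. Areg made up 7.37%, 15.4% and 42.1% in Foxo1dd, against 0%, 0.177% and 2.90% in Foxo1ff. Hbegf held more than Tgfa in every Foxo1ff sample, by 2.02, 2.07 and 1.69 to 1, while the Hbegf to Tgfa ratio was 0.873, 1.16 and 0.939 in Foxo1dd. In Foxo1dd 3 Areg was the most abundant ligand of the 5. These shares do not depend on a scaling factor per sample, and they restate the levels above without being a separate test.

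**Figure D2:**
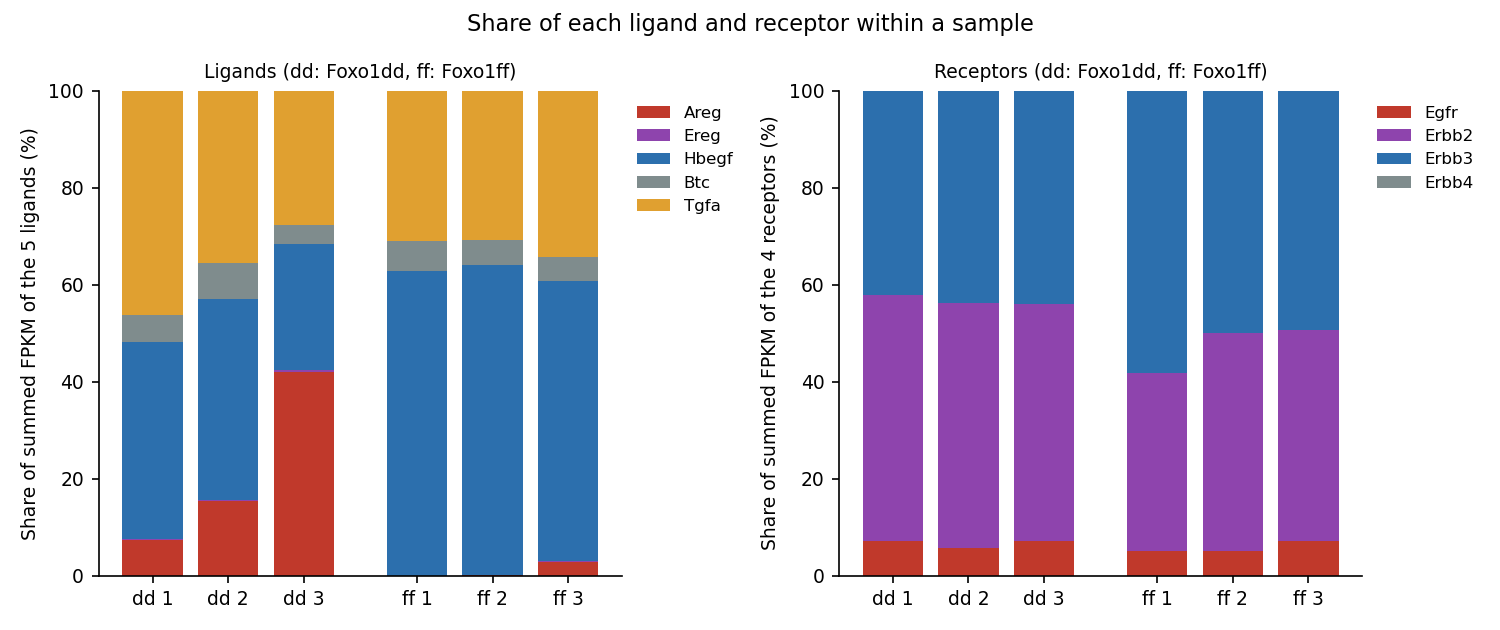
Share (%) of each gene in the summed FPKM of the 5 ligands (left panel) and of the 4 receptors (right panel), 1 bar for each sample, Foxo1dd before Foxo1ff. Hbegf filled 57.9% to 63.8% of the ligand sum in Foxo1ff and 26.0% to 41.4% in Foxo1dd, and Erbb3 filled 49.3% to 58.1% of the receptor sum in Foxo1ff and 42.2% to 44.0% in Foxo1dd.

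The receptor pool was made of Erbb2 and Erbb3, with little Egfr and almost no Erbb4. Erbb2, the receptor that has no ligand of its own, had 50.3, 42.5 and 54.2 FPKM in Foxo1dd, against 68.7, 55.8 and 43.2 FPKM in Foxo1ff. The groups overlapped, and the log2 change was -0.17 ± 0.18 (SE, limma adjusted p = 0.444), with a 95% interval of -0.57 to 0.23. Exons of Mien1 lie opposite to those of Erbb2. Grb7, an adaptor gene that starts 8.68 kb after Erbb2 on chromosome 11, had a log2 change of -0.53 ± 0.12 (SE, limma adjusted p = 0.00439).

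Erbb3, the neuregulin receptor, was the most abundant of the 10 genes in Foxo1ff by its mean. It had 42.0, 36.8 and 48.7 FPKM in Foxo1dd, against 108.3, 62.2 and 48.7 FPKM in Foxo1ff. The groups touch: the highest Foxo1dd value, 48.662 FPKM, is just under the lowest Foxo1ff value, 48.749 FPKM. Means were 42.5 ± 5.93 FPKM in Foxo1dd and 73.1 ± 31.3 FPKM in Foxo1ff (SD, n = 3 each), a log2 change of -0.70 ± 0.26 (SE, limma adjusted p = 0.0445). The call was lost in 8 of 14 alternatives. Among these were scaling by the median of ratios (-0.55, adjusted p = 0.0875), quantile normalization (-0.56, adjusted p = 0.0845), and leaving out Foxo1ff 1, the sample at 108.3 FPKM (-0.37, adjusted p = 0.0983). The others were no filter, eBayes without a trend, and leaving out Foxo1dd 1, Foxo1dd 2 or Foxo1ff 2 (adjusted p of 0.0593 to 0.113).

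Within a sample, the ratio of Erbb3 to Erbb2 was 0.835, 0.867 and 0.898 in Foxo1dd, against 1.58, 1.11 and 1.13 in Foxo1ff. By FPKM, Erbb2 was the higher of the pair in each Foxo1dd sample and Erbb3 in each Foxo1ff sample, and the groups did not overlap. Which gene is the higher depends on the gene lengths used, which are not given, whereas the difference in ratio between groups does not. With 3 samples a group no exact permutation p can be below 0.1, and the ratios were chosen after their values were seen, so no test is given. As a share of the 4 receptors, Erbb3 was 43.3% ± 0.960 in Foxo1dd and 52.4% ± 4.93 in Foxo1ff (SD, n = 3 each).

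Egfr, the receptor of Areg, Tgfa and Hbegf, was low beside Erbb2 and Erbb3. It had 7.16, 4.73 and 7.81 FPKM in Foxo1dd, against 9.36, 6.43 and 7.06 FPKM in Foxo1ff. The groups overlapped, and the log2 change was -0.20 ± 0.21 (SE, limma adjusted p = 0.449), with a 95% interval of -0.67 to 0.28. Erbb2 exceeded Egfr 6.94-fold to 8.98-fold in Foxo1dd and 6.12-fold to 8.67-fold in Foxo1ff. Erbb4 was listed at 0 in each Foxo1dd sample, which allows up to 0.00290 to 0.00330 FPKM (3 reads), and at 0.0250, 0.00700 and 0.00800 FPKM in Foxo1ff. Those values stand for about 27.5, 8.50 and 8.14 reads over 12.4 kb of exons.

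The captured strip could hold cells other than epithelium, and uterine stroma is known to express Egfr. Of 12 stroma markers, 9 were tested, 2 rose (Col3a1 and Nr2f2, 22.2%, against 22.2% of all tested genes) and 0 fell (against 34.2%). Their summed level was 38.6 to 56.5 FPKM in Foxo1dd against 36.4 to 40.8 FPKM in Foxo1ff. Without Nr2f2 it was 13.6 to 26.1 FPKM in Foxo1dd against 14.5 to 20.0 FPKM in Foxo1ff, and the groups overlapped. The number that rose depended on single samples: it was 4 without Foxo1dd 2, with Col1a2 and Hoxa11 added, 1 without Foxo1ff 3, and 0 without Foxo1dd 1, Foxo1dd 3, Foxo1ff 1 or Foxo1ff 2. Of 10 epithelial markers, all 10 were tested, 4 rose (40.0%, against 22.2% of all tested genes) and 2 fell (20.0%, against 34.2%). Krt8, Krt19, Elf3 and Wnt7a rose. Epcam and Cdh1 fell, with log2 changes of -0.49 and -0.57. Median-of-ratios scaling lost the call of Epcam, and quantile normalization that of Cdh1. The sums of all 10 were 3218 to 3641 FPKM in Foxo1dd against 2322 to 2992 FPKM in Foxo1ff. Krt8 gave 626.3 to 723.2 FPKM of the Foxo1dd sums and 250.2 to 338.4 FPKM of the Foxo1ff sums. Krt19 gave 288.9 to 559.8 FPKM and 24.5 to 66.5 FPKM. Of 6 gland markers, 4 were tested, 3 fell (75.0%, against 34.2% of all tested genes) and 1 rose (Lif, 25.0%, against 22.2%). Their sums were 1.04 to 6.54 FPKM in Foxo1dd against 51.8 to 209.8 FPKM in Foxo1ff. Without Spink1, at 44.2, 57.2 and 178.4 FPKM in Foxo1ff, the sums were 0.972 to 6.54 FPKM in Foxo1dd against 3.76 to 31.4 FPKM in Foxo1ff and overlapped. Foxa2, a defining gland gene, was not tested, at 0.399 to 0.908 FPKM in Foxo1dd against 0.643 to 1.36 FPKM in Foxo1ff. Lif was not called without a filter, at a minimum of 5 FPKM, or without Foxo1dd 1, Foxo1dd 3 or Foxo1ff 1. Of 10 leukocyte markers, 6 were tested, 2 rose (33.3%, against 22.2% of all tested genes) and 4 fell (66.7%, against 34.2%). Their sums were 71.9 to 91.8 FPKM in Foxo1dd against 37.9 to 83.3 FPKM in Foxo1ff. Laptm5 alone gave 53.2 to 70.7 FPKM of the Foxo1dd sum and 2.73 to 5.78 FPKM of the Foxo1ff sum. Without it the sums were 16.0 to 21.1 FPKM in Foxo1dd against 32.1 to 79.7 FPKM in Foxo1ff, the opposite direction, and Ptprc, Lyz2, C1qa and Csf1r were the 4 that fell. Cd68, which rose beside Laptm5, lost its call without a filter and on leaving out any 1 sample other than Foxo1dd 1. Endothelial markers summed to 1.53 to 2.92 FPKM in Foxo1dd against 0.708 to 0.768 FPKM in Foxo1ff, and smooth muscle markers to 3.77 to 4.76 FPKM against 2.99 to 5.33 FPKM. No marker of these lists was at 0 in all 6 samples. The part of other cells in the values of the EGF family was not tested, and in bulk samples fewer cells of a type and less RNA per cell cannot be told apart.

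Errfi1, the inhibitor, was as abundant as the main receptors. It had 53.0, 35.9 and 71.3 FPKM in Foxo1dd, against 51.8, 45.4 and 38.7 FPKM in Foxo1ff. The Foxo1dd samples spread to either side of the Foxo1ff range, and the log2 change was 0.19 ± 0.23 (SE, limma adjusted p = 0.506), with a 95% interval of -0.33 to 0.71. Its direction turned without Foxo1dd 3 (-0.04). The gene lies on chromosome 4 (150853919 to 150868892, plus strand) and overlaps no exon of another gene.

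**Figure D3:**
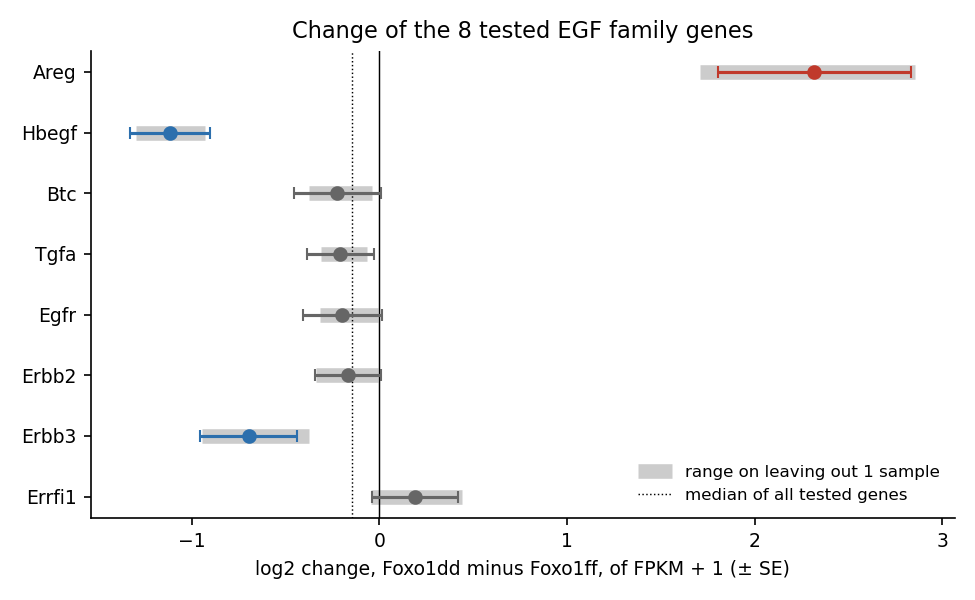
Log2 change (Foxo1dd minus Foxo1ff, of FPKM + 1) of the 8 tested genes with its SE; red marks a gene called higher, blue a gene called lower and grey a gene not called. Grey bars give the range on leaving out 1 sample at a time and the dotted line the median of all tested genes, -0.15, close to which Btc, Tgfa, Egfr and Erbb2 lie at -0.22 to -0.17.

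By mean FPKM the order in Foxo1dd was Errfi1, Erbb2, Erbb3, Tgfa, Hbegf, Areg, Egfr, Btc, Ereg and Erbb4. In Foxo1ff it was Erbb3, Erbb2, Errfi1, Hbegf, Tgfa, Egfr, Btc, Areg, Erbb4 and Ereg. Errfi1, Erbb2 and Erbb3 overlapped as neighbours in each group. In Foxo1dd the ranges of Tgfa, Hbegf, Areg and Egfr ran into one another, whereas in Foxo1ff Hbegf, Tgfa, Egfr and Btc stood apart from their neighbours. Areg thus stood above Btc in Foxo1dd and below it in Foxo1ff. Its place above Egfr in Foxo1dd rested on Foxo1dd 3, without which the means were 3.40 FPKM for Areg and 5.95 FPKM for Egfr.

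Genes whose profile over the 6 samples was most like that of a called gene were found by the Euclidean distance between centred log2(FPKM + 1) values, which genotype dominates. The nearest to Areg were Myo1g (distance 0.690) and Pcdh17 (0.832), to Hbegf Cpeb1 (0.294) and Chsy1 (0.299), and to Erbb3 Sema6a (0.231) and Sel1l (0.277). Myo1g had 4.76, 7.49 and 14.0 FPKM in Foxo1dd and 0.326, 0.736 and 1.55 FPKM in Foxo1ff. Like Areg, it was highest in Foxo1dd 3 and, among the controls, in Foxo1ff 3, a likeness that the choice by distance favours.

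Among the other ligands of the family, Nrg4, a neuregulin that binds Erbb4, was the only one of 6 above the minimum, and it rose. It had 12.3, 15.5 and 16.4 FPKM in Foxo1dd, against 4.74, 4.51 and 4.13 FPKM in Foxo1ff, a log2 change of 1.52 ± 0.16 (SE, limma adjusted p = 4.50e-05). Nrg4 was thus at the level of Tgfa or above it in Foxo1dd 2 and 3, while Erbb4, its receptor, was at 0 in those samples. Exons of Fbxo22 and Gm15625 lie opposite to those of Nrg4. Nrg1, a ligand of Erbb3, was not tested, with 1.15, 0.0960 and 0.297 FPKM in Foxo1dd and 0, 0 and 0.115 FPKM in Foxo1ff.

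The machinery that releases the ligands went both ways. Of 10 genes, 8 were tested, 2 rose and 2 fell (the background is 22.2% higher and 34.2% lower), with a median log2 change of 0.05. The metalloproteases Adam10 and Adam17, which cut EGF ligands from the membrane, were not called, at 58.7, 42.5 and 60.6 FPKM for Adam10 and 29.4, 25.1 and 27.1 FPKM for Adam17 in Foxo1dd. In Foxo1ff they had 52.7, 49.7 and 48.1 FPKM and 35.1, 29.6 and 27.0 FPKM. Rhbdf1 and Rhbdf2, the iRhoms that carry Adam17 to the cell surface, fell, with log2 changes of -1.27 ± 0.19 and -0.53 ± 0.14 (SE, limma adjusted p = 0.000465 and 0.0124). Timp3, an inhibitor of Adam17, rose to 15.5, 17.3 and 14.7 FPKM in Foxo1dd, against 5.87, 0.741 and 1.45 FPKM in Foxo1ff (log2 change 2.45 ± 0.42, SE, limma adjusted p = 0.00103). Adam15 rose by 0.64 on the log2 scale (adjusted p = 0.0125). Genes on the opposite strand overlap the exons of Timp3 (Syn3), Adam15 (4731419I09Rik) and Adam17 (Iah1).

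Surface proteins that hold or assist the heparin-binding ligand formed a list of 8 tested genes, of which 2 rose (25.0%, against 22.2% of all tested genes) and 5 fell (62.5%, against 34.2%), with a median log2 change of -0.80 beside -0.15 over all tested genes. Gpc1 (glypican-1), Sdc1 and Sdc4 (syndecans), which carry heparan sulphate, fell with log2 changes of -1.83, -0.96 and -0.72. The integrin subunits Itga3 and Itgb1 fell with -1.59 and -0.87. Cd9, a tetraspanin that associates with the membrane form of the ligand, rose, with 1255, 1077 and 1295 FPKM in Foxo1dd against 623, 727 and 886 FPKM in Foxo1ff. Nrdc (nardilysin, in the table as Nrd1), which enhances ligand shedding, rose by 0.81 on the log2 scale (limma adjusted p = 0.0155), a call lost without a filter (adjusted p = 0.0520). Its value is uncertain, since its exons overlap Mir761 on their own strand and Osbpl9 on the other, as those of Cd9 overlap Gm26728 and those of Gpc1 Ankmy1.

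Of 20 adaptor and RAS-ERK genes, 19 were tested, 3 rose (15.8%, against 22.2% of all tested genes), 7 fell (36.8%, against 34.2%) and 9 were not called, with a median log2 change of -0.21. The smallest p-values went both ways. Mapk3, the gene of ERK1, had 125.9, 134.6 and 151.3 FPKM in Foxo1dd against 79.7, 79.4 and 71.1 FPKM in Foxo1ff, and Grb2, the adaptor that links the receptors to RAS, rose by 0.66 on the log2 scale. Gab1, a docking protein, had 11.6, 9.13 and 10.3 FPKM in Foxo1dd against 36.6, 28.9 and 19.7 FPKM in Foxo1ff, and Map2k1, the kinase that activates ERK, had a log2 change of -0.64. Limma adjusted p of these 4 genes ran from 0.000325 to 0.00141. Exons of Gm31105 lie opposite to those of Gab1.

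Of 14 genes that restrain the receptors or direct their turnover, 4 rose (28.6%, against 22.2% of all tested genes) and 5 fell (35.7%, against 34.2%), with a median log2 change of -0.20. Lrig1, a transmembrane protein that promotes loss of ERBB receptors, had 19.5, 15.1 and 23.8 FPKM in Foxo1dd against 41.5, 54.7 and 65.8 FPKM in Foxo1ff. The ubiquitin ligases Cblb and Cblc fell with log2 changes of -1.25 and -0.72. Sh3kbp1, the CBL partner CIN85, rose to 12.3, 9.19 and 10.1 FPKM in Foxo1dd, against 2.31, 2.00 and 2.04 FPKM in Foxo1ff. The smallest of these p-values belonged to Sh3kbp1 (limma adjusted p = 1.73e-05). Without Foxo1ff 2 the number that rose was 2, and exons of Slc25a26 lie opposite to those of Lrig1.

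**Figure D4:**
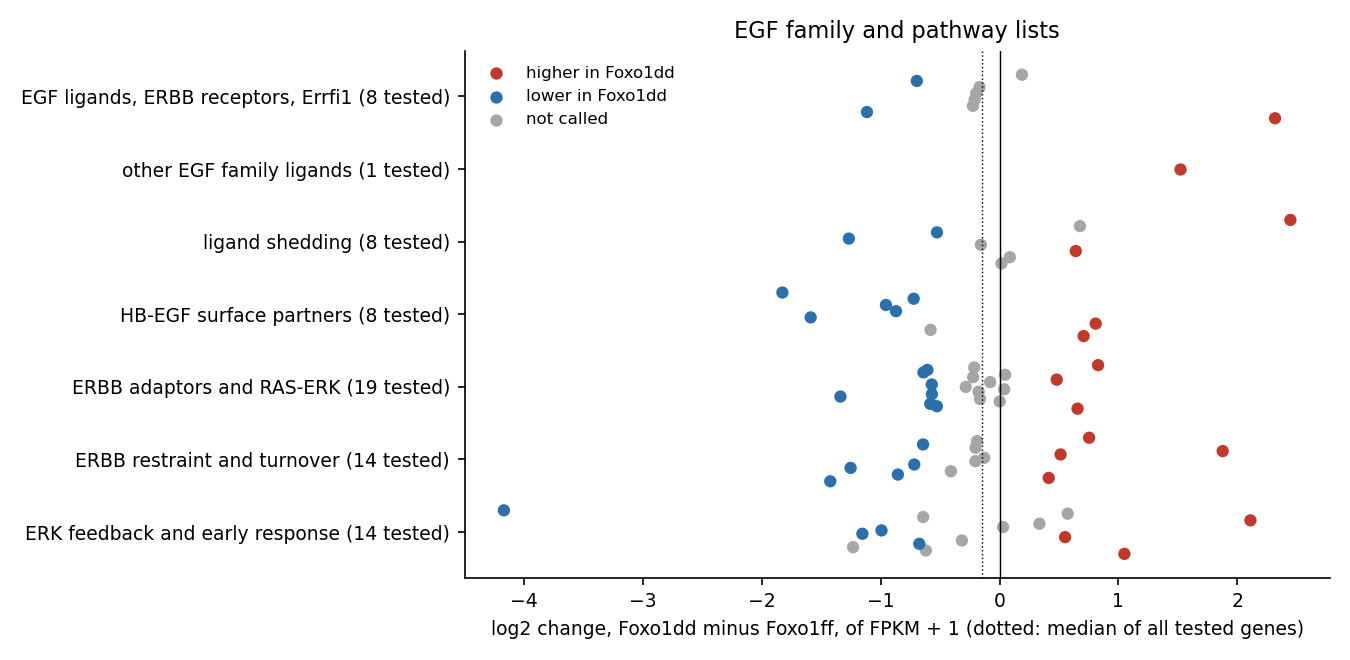
Log2 change (Foxo1dd minus Foxo1ff, of FPKM + 1) of each tested gene, in rows for the EGF family itself and for 6 lists of pathway genes. Red points were called higher, blue points lower and grey points not called. All rows with more than 1 gene held calls in each direction, and Myc, at -4.17, lies furthest from 0.

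Genes that ERK signalling is known to induce, among them its own feedback inhibitors, were split. Of 19, 14 were tested, 3 rose (21.4%, against 22.2% of all tested genes), 4 fell (28.6%, against 34.2%) and 7 were not called, with a median log2 change of -0.47. Myc had 7.84, 1.98 and 6.17 FPKM in Foxo1dd against 139.0, 92.7 and 83.1 FPKM in Foxo1ff (log2 change -4.17 ± 0.37, SE, limma adjusted p = 1.97e-05). The feedback inhibitors Spry4 and Spred1 fell with log2 changes of -1.15 and -0.99, while the feedback inhibitors Spry2 and Dusp1, named after their values were seen, rose by 0.55 and 1.05 on the log2 scale (limma adjusted p = 0.0176 and 0.0189). Fos, an AP-1 subunit gene, rose to 7.16, 6.19 and 27.9 FPKM in Foxo1dd, against 1.52, 1.80 and 1.98 FPKM in Foxo1ff (log2 change 2.11 ± 0.45, SE, limma adjusted p = 0.00355). Etv4, an ETS factor gene named after its values were seen, was listed at 0 in all 3 Foxo1dd samples and at 1.92, 1.51 and 0.995 FPKM in Foxo1ff, below the minimum for testing. In the fit without a filter its log2 change was -1.29 (limma adjusted p = 0.000967). The other gene that fell was Dusp6 (log2 change -0.68, limma adjusted p = 0.0292), whose groups overlapped. Its call was lost without a filter, under median-of-ratios scaling and under quantile normalization. It was also lost without Foxo1dd 1, Foxo1dd 3, Foxo1ff 1 or Foxo1ff 2. Dusp1 lost its call without a filter (limma adjusted p = 0.0666). The 3 that rose became 1 without Foxo1ff 2 or without Foxo1ff 3, and the 4 that fell became 2 without Foxo1ff 2.

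Foxo1dd 3, the sample with the most Areg, stood apart from the other Foxo1dd samples in several of these genes, as the plot of Areg and ERK genes by sample shows. The following were named after their values were seen. Dusp4 and Dusp5, phosphatases that switch off ERK, had 5.38 and 11.7 FPKM in Foxo1dd 3. In Foxo1dd 1 and 2 Dusp4 had 0.630 and 0.758 FPKM and Dusp5 had 2.38 and 1.38 FPKM, against 2.34 to 4.49 FPKM for Dusp4 and 7.23 to 11.8 FPKM for Dusp5 in Foxo1ff. Neither gene was called (limma adjusted p = 0.298 and 0.0746), and without Foxo1dd 3 each was called lower (adjusted p = 0.00343 and 0.000271). Of the 14 tested genes of the list, 7 were highest in Foxo1dd 3 among the Foxo1dd samples, 5 in Foxo1dd 1 and 2 in Foxo1dd 2. Over all tested genes 36.9% were highest in Foxo1dd 3, and in the adaptor list 11 of 19 were.

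**Figure D5:**
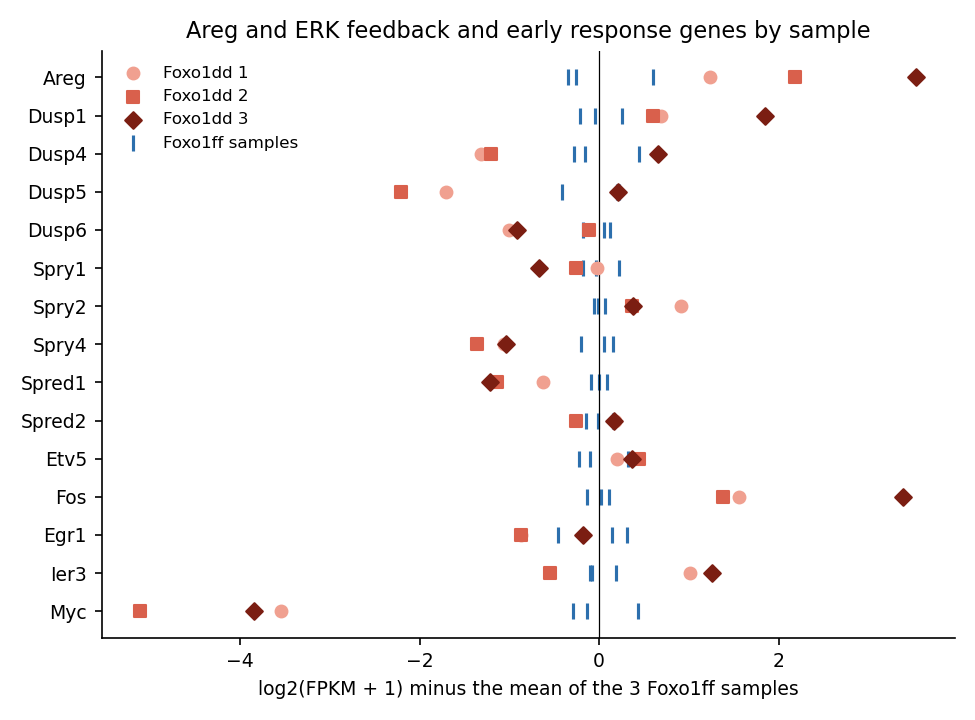
Values of Areg and of the 14 tested ERK feedback and early response genes in each sample, as log2(FPKM + 1) minus the mean of the 3 Foxo1ff samples. Red symbols are the Foxo1dd samples and blue ticks the Foxo1ff samples. In Foxo1dd 3 (dark diamonds) Areg and Fos stand 3.53 and 3.39 above the Foxo1ff mean, while Dusp4 and Dusp5 lie at 0.66 and 0.21 in that sample and below -1.20 in the other Foxo1dd samples.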

How the data were processed

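Total RNA of laser-captured luminal epithelium was sequenced in 3 Foxo1dd and 3 Foxo1ff samples, grouped by title. The authors deposited 1 FPKM value per gene and sample, and the submitters' processing notes name mm10, STAR 2.5.2b, featureCounts 1.5.0-p1, edgeR 3.28.0 and DESeq2 1.12.4 without roles. The sources used here do not give the annotation, gene lengths or strand setting. FPKM values are not counts, so log2(FPKM + 1) of the 11427 genes averaging 1 FPKM or more was tested with limma 3.58.1 in R 4.3.3 (trended eBayes, genotype as the only term), with Benjamini-Hochberg adjustment over all of them and a threshold of 0.05. The procedure was run on simulated data with independent noise and few genes changed. These data have many calls, so that run does not bear on the scaling between samples.

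Depth was read from miRNA and snoRNA genes, whose FPKM times length stepped in whole reads for 88.5% to 100% of values under 12 reads (tolerance 0.05 of a read). The FPKM divisor was about 73700000 to 98300000 reads, least certain in Foxo1dd 2 (26 values). Reads of PCR copies are not independent, so floors of 3 reads cover counting error only. Positions are from GENCODE M21 and promoters from RefSeq. The genes and lists were chosen with earlier results of these data known. The text names all 10 genes, Foxo1, up to 4 genes of each pathway list with the smallest p, every called gene of lists of up to 10 and 2 nearest profiles per called gene. Others were named after their values were seen, except list members named as a part of the pathway. Other settings tried were 0.1 and 0.5 as the pseudocount, a minimum of 5 FPKM or none, scaling by median of ratios, quantile normalization, untrended eBayes, the bioreplicate number as a block, and each sample left out.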

Additional observations from a re-analysis of the deposited data

How the results depend on the processing

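The counts of genes higher and lower in the whole table stayed within 1.5 times of 2533 and 3912 under all 14 alternatives run. The number of EGF family genes that rose (1) became 2 without a filter, where Ereg passed (log2 change 0.10, adjusted p = 0.0195) and Erbb4 did not (adjusted p = 0.536), and 0 at a minimum of 5 FPKM, which leaves Areg and Btc untested. The number that fell (2) became 1 without a filter, under median-of-ratios scaling, under quantile normalization and for eBayes without a trend, and was 1 to 2 on leaving out each sample. The gene lost was Erbb3, at adjusted p of 0.0117 to 0.113 over its 14 alternatives, and the cause was not tested. Of the 119 values for the whole table, the family counts and the shares, 109 stayed within 1.5 times (counts) or moved by less than the replicate SD (shares). The other 10 were all family counts, the small numbers of members that rose or fell. The share of calls that were higher was 39.3% as deposited and 49.1% under median-of-ratios scaling and under quantile normalization. Whether the bioreplicate numbers pair the samples could not be settled from 3 samples a group. Deviations from the group means correlated at 0.123, 0.107 and -0.133 for the same number, and at -0.207 to 0.150 for different numbers. A replicate block gave 2417 genes higher and 3724 lower, with the family counts unchanged at 1 and 2. The limma adjusted p was then 0.000108 for Areg, 0.000523 for Hbegf and 0.0269 for Erbb3, against 0.00426, 0.00178 and 0.0445 without the block. With 3 samples a group, uncalled genes have intervals wide enough to hold changes of over 0.5 log2. The low levels of Ereg and Erbb4, at most 28.0 reads a sample, limit what can be said of them.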
